A study of Mus musculus with 6 samples.

Results

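Expression in 129.MOLF-Chr19 mice was set against that in 129/Sv mice over all 6 arrays of the series, 3 per strain, and the strain difference was taken within E13.5 testis, within postnatal day 1 (PN1) testis and within whole E13.5 male embryos. The 6 arrays are all of the series' arrays. 129.MOLF-Chr19, called M19 by the submitters, is a consomic strain: its chromosome 19 comes from the wild-derived MOLF strain on a 129 background, and it develops testicular germ cell tumours often. 129/Sv is the host strain with its own chromosome 19. Each array held 1 pool of RNA. At E13.5 the pools were of 20 pairs of testes in each strain, at PN1 of 12 pairs in 129/Sv and 25 pairs in 129.MOLF-Chr19, and the embryo pools were of 3 embryos each. With 1 array per strain and tissue, no p-value here measures the spread between animals. In the fit of strain with tissue as block, the spread is that of the strain difference between the 3 tissues, pooled in part over all probe sets. The study asked which genes change in the gonad at the ages when germ cells are thought to transform, and used the embryo to see whether a change is special to the gonad.

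A consomic strain differs from its host, by design, in the replaced chromosome, whose genes carry the donor's sequence, while the rest of the genome is meant to be that of the host. The arrays measure each gene with short probes designed on reference transcripts, grouped into probe sets, and many genes have several probe sets that read different stretches or transcript ends. A probe set reads both the amount of transcript and how well the transcript matches its probes. Probe sequences and MOLF sequence were not analysed here, so a change in transcript level and a change in hybridisation cannot be told apart.

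The tissue labels matched their defining markers. The germ cell helicase Ddx4 read 386 to 499 in the 4 testis arrays and 18.1 and 22.1 in the embryo arrays, while the liver gene Alb read 5499 and 6413 in the embryo arrays and 140 to 208 in the testes. Array medians lay between 220.5 and 250.7 intensity units. The array of the 129.MOLF-Chr19 PN1 testis stood apart: its Actb 3' to 5' signal ratio was 1.84, against 1.09 to 1.19 on the others, and 303 of its tested probe sets were at the floor used for low values, against 125 to 173 on the others. Its Gapdh ratio of 0.916 lay within the range of the others. The PN1 pair also had the most probe sets past 2-fold, 393 lower and 36 higher in 129.MOLF-Chr19, against 12 and 23 in the E13.5 testis and 67 and 11 in the embryo. The calls are therefore also given without that pair, from a fit of the other pairs alone that has fewer residual degrees of freedom.

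1 probe set in each of 3 chromosome 19 genes was lower in 129.MOLF-Chr19 in all 3 tissues and passed the test. These were 1 of the 4 tested for Sf1, 1 of 3 for Pum3 and 1 of 3 for Cox15. They differed by -2.77, -2.40 and -1.52 on the log2 scale (129.MOLF-Chr19 minus 129/Sv, the direction of every difference given here), and no probe set passed in the other direction. The submitters name these genes, and the submitters picked them on these same 6 arrays, so finding the probe sets lower here adds no independent evidence. In all, 24713 probe sets were tested (limma with tissue as block, Benjamini-Hochberg adjusted p under 0.05), of which 0.0121% were called lower and 0% higher. At an unadjusted p under 0.05, 2355 were higher (9.53%) and 913 lower (3.69%). An exact sign-flip test of a single value over 3 pairs cannot go below p = 0.25, so each call rests on limma's pooling of the spread over all probe sets.

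Sf1 (older symbol Zfp162) encodes splicing factor 1, which binds the branch point of introns at the first step of spliceosome assembly, and is not the steroidogenic factor of the same nickname. Its probe set 1459765_s_at read 5664 in 129/Sv and 856.4 in 129.MOLF-Chr19 in the E13.5 testis, 4894 and 796.6 in the PN1 testis, and 5439 and 603 in the embryo. The 3 values of 129/Sv were all above the 3 of 129.MOLF-Chr19, and the values within a strain lay close together whatever the tissue. After each array was centred on its median, the differences were -2.61, -2.62 and -3.09, or 6.1-fold, 6.15-fold and 8.49-fold lower. The mean difference was -2.77 (SE 0.126, 95% confidence interval -3.07 to -2.47, limma adjusted p = 0.00237, n = 3 tissue pairs).

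Pum3 (older symbol D19Bwg1357e) encodes a nucleolar RNA-binding protein of the Pumilio family. Its probe set 1434173_s_at read 1357 in 129/Sv and 227.7 in 129.MOLF-Chr19 in the E13.5 testis, 731 and 131.6 in the PN1 testis, and 742.6 and 146.5 in the embryo. The E13.5 testis was the highest of the 3 tissues in both strains, and the strains did not overlap. The centred differences were -2.46, -2.48 and -2.25, with a mean of -2.40 (SE 0.102, interval -2.64 to -2.15, limma adjusted p = 0.00237), which is 5.26-fold. The SD of the 3 differences was 0.123 for Pum3 and 0.272 for Sf1, beside a median of 0.18 over all tested probe sets.

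Cox15 encodes the mitochondrial enzyme that makes heme A for cytochrome c oxidase. Its probe set 1437982_x_at read 372.7 in 129/Sv and 87.49 in 129.MOLF-Chr19 in the E13.5 testis, 316.3 and 81.35 in the PN1 testis, and 339.2 and 50.19 in the embryo. All 3 values of 129.MOLF-Chr19 lay below the floor set for their arrays (their 25th percentile), to which low values were raised before the log was taken. The difference, at least 3.2-fold, 2.69-fold and 2.72-fold lower in the 3 tissues, is thus a bound. Its mean on that floor was -1.52 (SE 0.117, limma adjusted p = 0.049), a call that rests on the floor: without a floor the difference was -2.20 with a limma adjusted p of 0.0808, and with the floor at the 40th percentile it was -0.90 with an adjusted p of 0.222.

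**Figure D1:**
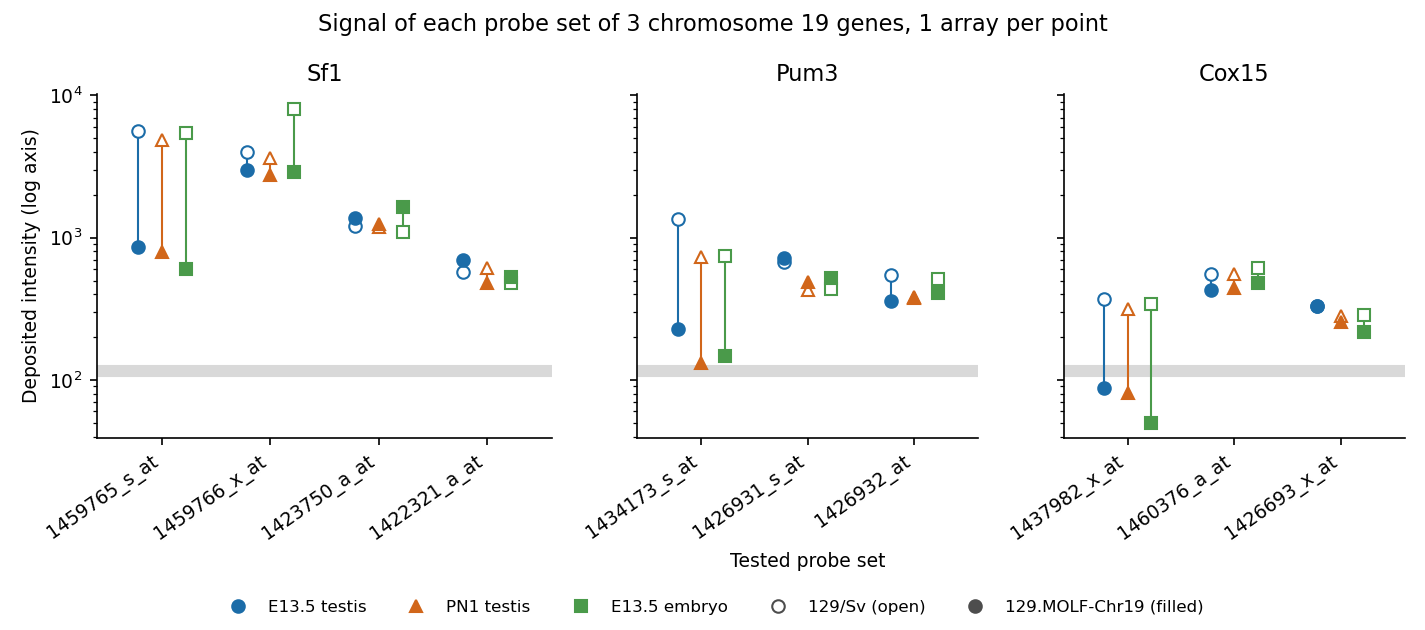
Deposited intensity (log axis) of every tested probe set of Sf1, Pum3 and Cox15. Each point is 1 array: open points are 129/Sv, filled points 129.MOLF-Chr19, the shape and colour give the tissue, a line joins the strains within a tissue, and the grey band spans the floors of the 6 arrays (107.4 to 125.4). In each gene 1 probe set drops most in all 3 tissues (Sf1 1459765_s_at from 4894 or more to 856.4 or less), and Sf1 1459766_x_at drops chiefly in the embryo, from 8012 to 2874.

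None of the other probe sets of the same genes was called over the 3 tissues. Of the 3 further probe sets of Sf1, 1459766_x_at differed by -0.30, -0.39 and -1.39 in E13.5 testis, PN1 testis and embryo, and the mean of -0.70 did not pass (limma adjusted p = 0.366), while without the PN1 pair it was called lower too, at -0.85 (adjusted p = 0.0198). The other 2 were higher on average, 1423750_a_at by 0.35 and 1422321_a_at by 0.10. Pum3 1426931_s_at was higher in each tissue, by 0.20, 0.19 and 0.36, and Pum3 1426932_at was lower in each, by -0.48, -0.03 and -0.24. Cox15 1460376_a_at differed by -0.25, -0.34 and -0.27 and Cox15 1426693_x_at by 0.11, -0.15 and -0.31, none of which passed. When all probe sets of a gene were averaged first, no gene was called in either direction (limma, 1840 of 13035 genes at an unadjusted p under 0.05).

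In Sf1, Pum3 and Cox15, 1 probe set each was called lower over the 3 tissues, and the other tested ones were not. The stretches just upstream of these 3 genes' starts are shown as background, and their part in the strain difference was not tested. They are the 250 bases before the start in RefSeq's annotation of GRCm38.p6, 5' to 3' along the gene: chr19:6363440-6363689 (plus strand) for Sf1, chr19:27429909-27430158 (minus strand) for Pum3 and chr19:43753001-43753250 (minus strand) for Cox15. This is the reference mouse sequence, neither that of 129 nor of MOLF. Capitals mark matches, on either strand, to 5 motifs. The first was searched as CCAAT (the CCAAT box) and the second as GGGCGG (the GC box). The core of ETS factor sites was searched as CCGGAA, that of NRF1 sites as GCATGCGC, and the box for the TATA-binding protein as TATAAA.
Sf1: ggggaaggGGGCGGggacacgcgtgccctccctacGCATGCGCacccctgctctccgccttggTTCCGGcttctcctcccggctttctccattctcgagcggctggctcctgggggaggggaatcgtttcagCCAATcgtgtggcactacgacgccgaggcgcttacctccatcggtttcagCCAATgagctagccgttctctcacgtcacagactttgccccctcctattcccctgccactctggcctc
Pum3: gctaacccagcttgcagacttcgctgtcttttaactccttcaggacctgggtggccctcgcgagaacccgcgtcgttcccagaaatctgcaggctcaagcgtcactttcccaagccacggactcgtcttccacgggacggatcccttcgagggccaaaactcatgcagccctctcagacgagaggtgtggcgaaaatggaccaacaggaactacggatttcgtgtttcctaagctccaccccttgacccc
Cox15: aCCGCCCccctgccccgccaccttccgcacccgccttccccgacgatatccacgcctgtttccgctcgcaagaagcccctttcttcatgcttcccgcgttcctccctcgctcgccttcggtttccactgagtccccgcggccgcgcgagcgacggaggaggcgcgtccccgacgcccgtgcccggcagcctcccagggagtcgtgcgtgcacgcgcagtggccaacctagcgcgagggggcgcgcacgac
The Sf1 stretch holds 2 CCAAT boxes, at 118 to 114 and 68 to 64 bases before the start, an NRF1 core at 215 to 208, a GC box at 242 to 237 and an ETS core on the opposite strand. The Cox15 stretch holds 1 GC box, on the opposite strand, and the Pum3 stretch holds none of the 5 motifs, so no motif searched is common to the 3. Over all 32851 starts in the table, 33.8% hold a CCAAT box in the same window, 32.7% a GC box, 12.0% an ETS core, 2.26% an NRF1 core and 12.4% a TATA box. The GC content was 64% for Sf1, 57.2% for Pum3 and 72% for Cox15, beside a median of 52.4% over all starts. A match is a stretch of letters in the reference and not a measured binding site.

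4 further probe sets came close to the threshold, and 3 of these 4 are on chromosome 19. Tmem258, which encodes a small subunit of the oligosaccharyltransferase that puts sugar chains on proteins, read 452.2 in 129/Sv and 1196 in 129.MOLF-Chr19 in the E13.5 testis, 474.6 and 1092 in the PN1 testis, and 474.2 and 1053 in the embryo (probe set 1425242_at). All 3 values of 129.MOLF-Chr19 lay above the 3 of 129/Sv, and each strain was nearly level across tissues. The mean difference was 1.32 (SE 0.113, limma adjusted p = 0.0729), and it passed with the values as deposited (adjusted p = 0.019), after quantile normalization (0.0406), with limma's robust option (0.0228) and without the PN1 pair (2.47e-05). Under the other settings it did not pass, among them no filter (limma adjusted p = 0.159), without the E13.5 testis pair (0.845) and without the embryo pair (0.508). The second Tmem258 probe set, 1428632_at, differed by -0.08, 0.02 and -0.00.

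Trim8, a RING-finger ubiquitin ligase gene, and Ndufv1, which encodes a core subunit of respiratory complex I, were on the lower side. Trim8 1438679_at read 858.2, 638.4 and 803.2 in the 129/Sv E13.5 testis, PN1 testis and embryo, and 387.4, 244.8 and 361.6 in 129.MOLF-Chr19. Its mean difference was -1.16 (limma adjusted p = 0.115), while its other probe sets differed by 0.29 and 0.02. Ndufv1 1415966_a_at read 1009, 1002 and 855.6 in 129/Sv and 470.1, 358.7 and 337.6 in 129.MOLF-Chr19, a mean difference of -1.24 (adjusted p = 0.119). A second Ndufv1 probe set, 1456015_x_at, was also lower in each tissue, by -0.33, -0.52 and -0.70, and the remaining one, 1415967_at, averaged 0.00. The strains did not overlap in the leading probe set of either gene. Both passed with the values as deposited (limma adjusted p = 0.019 each), with the robust option (0.0393 each) and without the PN1 pair (0.00049 for Trim8 and 0.000419 for Ndufv1). Neither passed under the other settings, among them quantile normalization (limma adjusted p = 0.105 each), without the E13.5 testis pair (0.845 each) and without the embryo pair (0.508 each).

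Kat2b, on chromosome 17, was the 1 probe set of the 10 smallest p-values that lies off chromosome 19. It encodes the lysine acetyltransferase also called PCAF. Its probe set 1434037_s_at read 353.8 in 129/Sv and 715.7 in 129.MOLF-Chr19 in the E13.5 testis, 382.4 and 940.8 in the PN1 testis, and 409.5 and 770.3 in the embryo. The strains did not overlap, and the mean difference was 1.14 (SE 0.108, limma adjusted p = 0.105). It passed with the robust option (adjusted p = 0.037) and without the PN1 pair (0.000449). Under the other settings it did not, among them the values as deposited (limma adjusted p = 0.0732), quantile normalization (0.131), without the E13.5 testis pair (0.845) and without the embryo pair (0.508). The other Kat2b probe set, 1450821_at, differed by 0.08, 0.46 and -0.78.

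Consistency over tissues was uncommon at large size. A log2 difference of 1 or more with one sign in 3 of 3 tissues was met by 5 probe sets, 0.0202% of those tested: Tmem258 on the higher side and Sf1, Pum3, Cox15 and Trim8 on the lower. All 5 are on chromosome 19. Just outside, Kat2b reached 1.13, 1.30 and 1.00, where the last value lies just under the threshold before rounding, and Ndufv1 reached -0.98, -1.48 and -1.25. A weaker threshold of 0.5 in each tissue, chosen after the values were seen, was met by 14 of 750 probe sets on chromosome 19 (1.87%) and by 5 of 20604 on the other chromosomes (0.0243%). On chromosome 19, 9 of these 14 were lower and 5 higher. A further 6 probe sets, 4 lower and 2 higher, met it but have no single gene with a position and are in neither count. None of these 6 was called over the 3 tissues, and 3 were without the PN1 pair.

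**Figure D2:**
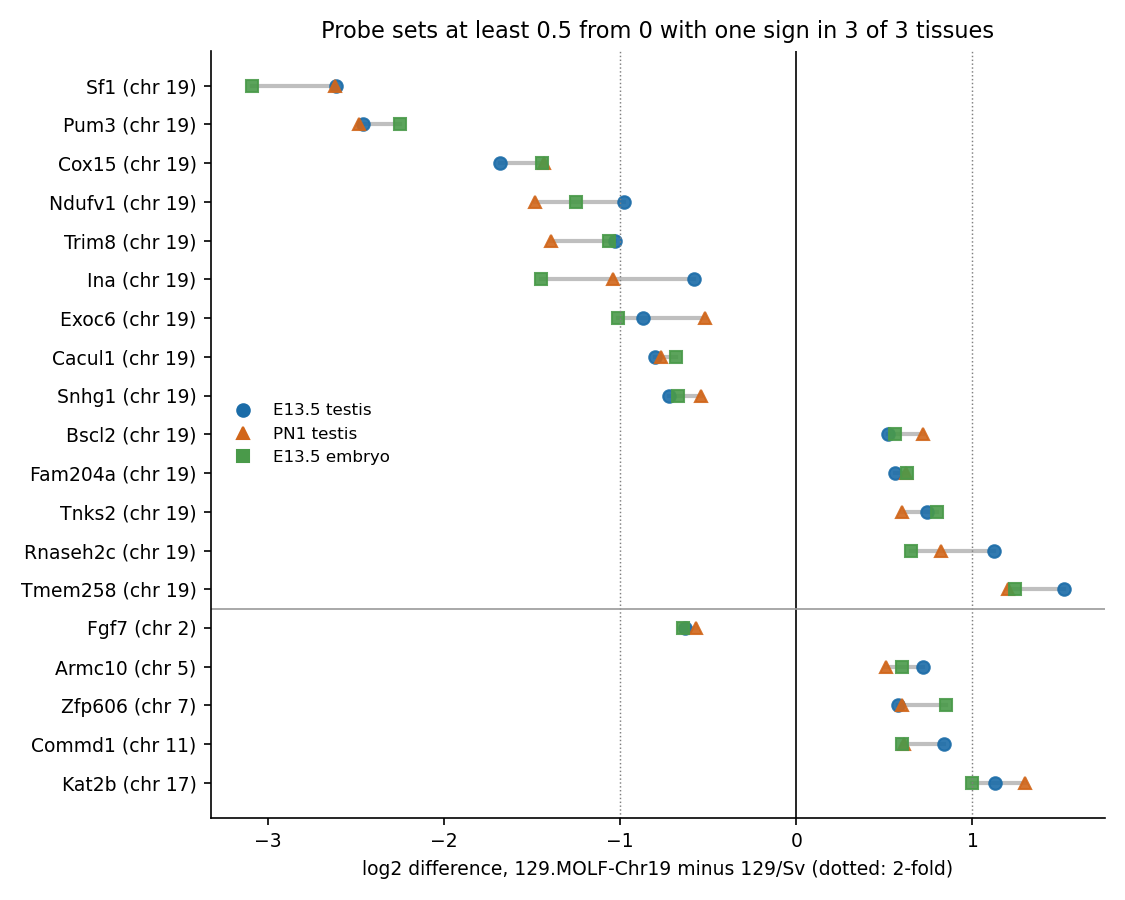
Log2 strain difference (129.MOLF-Chr19 minus 129/Sv) within each tissue for the 19 probe sets of a placed gene that differ by 0.5 or more with one sign in 3 of 3 tissues; each point is 1 pair of arrays, the grey line spans the 3 tissues, and dotted lines mark 2-fold. The 14 of chromosome 19 stand above the horizontal rule and the 5 of other chromosomes below it. Sf1 and Pum3 lie beyond -2 in each tissue.

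The further chromosome 19 probe sets of this kind had a limma adjusted p of 0.366 each. Without the PN1 pair, Exoc6 (0.00461), Ina (0.00595), Rnaseh2c (0.00634), Tnks2 (0.0162) and Snhg1 (0.0437) passed, and Fam204a (0.0637) and Bscl2 (0.0712) did not. On the lower side were Ina, an intermediate filament gene of neurons, with differences of -0.58, -1.04 and -1.45, Exoc6, an exocyst subunit gene, with -0.87, -0.52 and -1.01, Cacul1 with -0.80, -0.77 and -0.68, and Snhg1, a host gene of small nucleolar RNAs, with -0.72, -0.54 and -0.67. The Ina probe set was at the floor in both 129.MOLF-Chr19 testis arrays and read 3447 and 1191 in the 129/Sv and 129.MOLF-Chr19 embryos, so its testis differences are bounds. On the higher side were Rnaseh2c, a subunit gene of ribonuclease H2, with 1.12, 0.82 and 0.65, Tnks2, a tankyrase gene, with 0.74, 0.60 and 0.80, Bscl2, the seipin gene, with 0.52, 0.72 and 0.56, and Fam204a with 0.56, 0.62 and 0.63. Cacul1 was the gene whose second probe set came nearest to following the first: 1424982_a_at differed by -0.59, -0.46 and -0.66, while its other 4 ranged from -0.25 to 0.29 in the mean. Fam204a has 1 tested probe set.

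Probe sets of the same gene differed more among themselves on chromosome 19 than elsewhere. Among the 181 chromosome 19 genes with several tested probe sets, the median spread of the strain difference within a gene was 0.297 and 8 genes (4.42%) spread over 1 or more, against a median of 0.217 and 14 of 5066 genes (0.276%) on the other chromosomes. These 8 genes are Cacul1, Cox15, Ndufv1, Pum3, Rnaseh2c, Sf1, Tmem258 and Trim8, with the widest spread in Sf1 (from -2.77 to 0.35). Of the 14 consistent probe sets, 13 belong to genes with several, and in 0 of these 13 did another probe set of the gene reach 0.5 in each tissue with the same sign. Their 28 other probe sets had a median of 0.0153 in the direction of the leading one. The genes were picked by their leading probe set, so this is a description and no test. Probe sets marked _s_at or _x_at, which can share sequence with other transcripts, made up 6.11% and 6.17% of those tested and held 2 and 1 of the 3 calls.

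Chromosome 19 had the highest share of probe sets with a shared strain difference. At an unadjusted p under 0.05 stood 148 of its 750 probe sets (19.7%), against 2781 of 20604 over the other chromosomes, where the share ran from 11.6% to 16.1%. The excess was on the lower side: 8.67% of chromosome 19 probe sets were lower, against 2.23% to 4.32% elsewhere, while its 11.1% higher lay inside the range of 9.08% to 12.5% elsewhere. These splits depend on the scaling, since 72.1% of all probe sets at that level were higher after median centring, 56.2% after quantile normalization and 35.1% with the values as deposited. A mean difference of 0.5 or more in either direction was found in 5.07% of chromosome 19 probe sets, against 0.466% to 2.25% on the others. No test of chromosomes against each other was made.

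**Figure D3:**
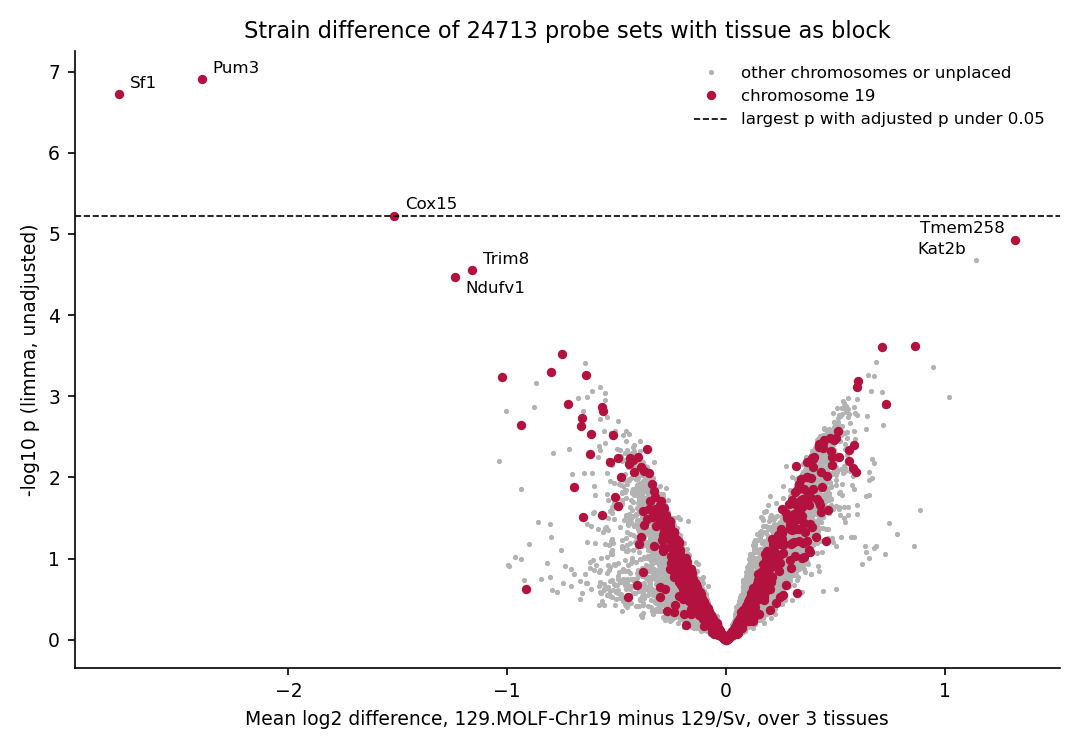
Mean log2 strain difference over 3 tissues (horizontal) against -log10 of limma's unadjusted p (vertical) for 24713 probe sets; red points are on chromosome 19, and the dashed line is the largest p with an adjusted p under 0.05. Sf1, Pum3 and Cox15 lie on or above the line, and Kat2b is the 1 labelled gene that is not on chromosome 19.

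**Figure D4:**
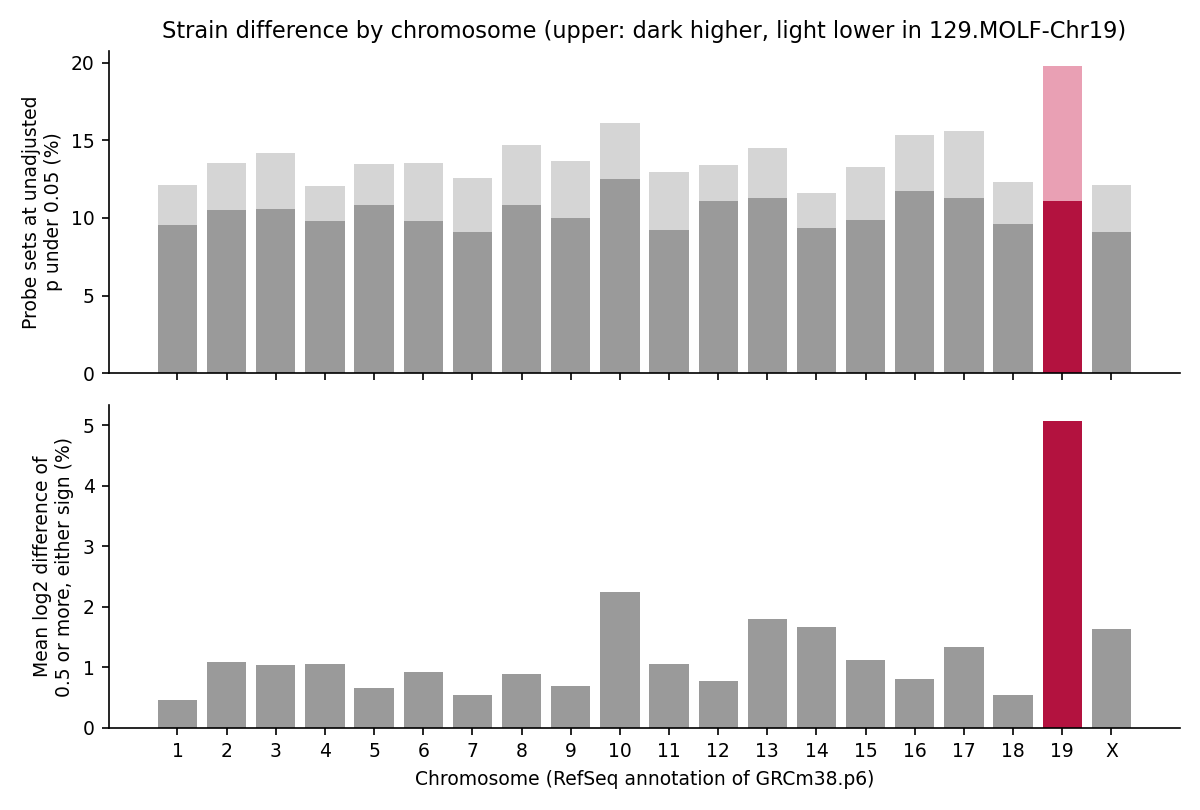
Share of tested probe sets on each chromosome at an unadjusted p under 0.05 (upper bars, dark for higher and light for lower in 129.MOLF-Chr19) and share with a mean log2 difference of 0.5 or more in either direction (lower bars). Chromosome 19 (red) has 19.7% and 5.07%, and the highest of the other chromosomes, 10, has 16.1% and 2.25%.

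The excess was concentrated at the top of the ranking. Chromosome 19 held 9 of the 10 probe sets with a gene position of smallest p, 14 of the first 25, 25 of the first 100 and 61 of the first 500 (12.2%), beside 3.51% of all placed probe sets. The median size of the difference was close to that elsewhere, 0.148 against 0.131, while its SD over probe sets was 0.289 against 0.189. The middle of the chromosome 19 values was thus near that of the other chromosomes, and the tails were wider.

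The named genes lay along most of the chromosome. When its 451 tested genes were put in order and cut into 10 bins, from 13.4% to 24.7% of the probe sets in a bin stood at an unadjusted p under 0.05, beside 11.6% to 16.1% on the other chromosomes, so the lowest bin, from Naaladl1 to Slc3a2, lay within their range. The consistent probe sets at 0.5 lay in 9 of the 10 bins. Sf1 was gene 102 of 451 in this order, Pum3 235 and Cox15 343, so the genes of the called probe sets are not neighbours. In the first 3 bins 3, 3 and 2 probe sets were lower and 12, 9 and 7 higher, while in the bin from Ch25h to Arhgap19 11 were lower and 9 higher.

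**Figure D5:**
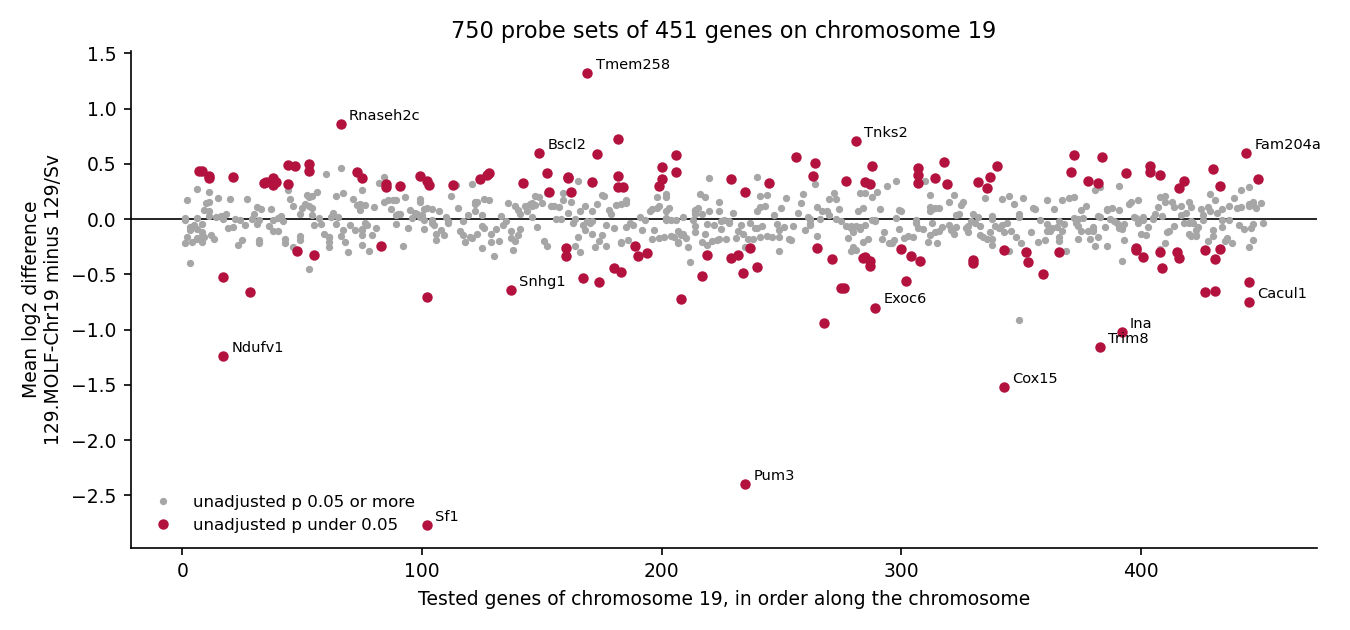
Mean log2 strain difference of the 750 chromosome 19 probe sets with their 451 genes in order along the chromosome (horizontal, rank of the gene); red points have an unadjusted p under 0.05 in limma, and the 14 probe sets that differ by 0.5 or more in each tissue are named. Named genes lie from rank 17 (Ndufv1) to rank 445 (Cacul1).

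Over all probe sets, one sign in 3 of 3 tissues was seen in 39.1% of probe sets, 24.8% higher and 14.3% lower. Across probe sets, which are not independent of each other, the strain difference of the E13.5 testis correlated with that of the embryo at r = 0.341 and with that of the PN1 testis at 0.175, and PN1 testis and embryo gave -0.0121. On chromosome 19 the 3 values were 0.60, 0.42 and 0.29, and without the 14 consistent probe sets 0.45, 0.25 and 0.07, against 0.33, 0.17 and -0.03 on the other chromosomes. The tissue pairs share no array, and each pair carries its own array noise.

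On the other chromosomes, 5 probe sets of placed genes differed by 0.5 or more in each tissue, and none of these passed over the 3 tissues (limma adjusted p = 0.105 for Kat2b, 0.366 for the others). Without the PN1 pair Kat2b, Commd1 (0.024), Zfp606 (0.0314) and Armc10 (0.0439) passed, and Fgf7 (0.0637) did not. Besides Kat2b these were Commd1 (0.84, 0.61 and 0.60), a copper metabolism gene, Zfp606 (0.58, 0.60 and 0.85), a zinc finger gene, Armc10 (0.72, 0.51 and 0.60) and, on the lower side, Fgf7 (-0.63, -0.57 and -0.64), a growth factor gene of mesenchyme. Ncapg, Tm9sf2 and Phf14 on the higher side and Usp50 and Sod1 on the lower complete the 12 probe sets of smallest p in each direction. Sod1 1435304_at, of superoxide dismutase, was the brightest of these off chromosome 19, with 3884, 2481 and 2884 in 129/Sv and 2620, 1527 and 1903 in 129.MOLF-Chr19. Its mean difference was -0.56 (limma adjusted p = 0.366).

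More probe sets were called without the PN1 pair: limma then called 61 probe sets, 41 higher and 20 lower, 17 of the 51 with a gene position on chromosome 19, and 48 of the 61 had the same sign in the PN1 pair. In that pair their median difference in the called direction was 0.32, against 0.76 in the other 2. The fit of those 2 pairs has fewer residual degrees of freedom than the fit reported, and its smaller p-values need not mean closer values. For Sf1 1459765_s_at its SE was 0.142 (limma adjusted p = 3.18e-11), against 0.126 (0.00237) in the fit reported. Why more probe sets were called was not tested. Without the embryo pair 2 were called, Pum3 and Sf1, and without the E13.5 testis pair limma called 0, with 970 at an unadjusted p under 0.05. In that fit Sf1 differed by -2.85 and Pum3 by -2.37, both with an adjusted p of 0.135. The part of the PN1 array's higher Actb ratio in these differences was not tested.

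In the probe sets that passed the filter on dim values, no strain difference was called as differing between testis and embryo. With no filter the same test called 1073 probe sets, 499 of which had passed the filter, so the count depends on it. The comparison, the mean strain difference of both testis pairs minus that of the embryo pair, called 0% of the probe sets (limma, smallest adjusted p = 0.9), with 1158 at an unadjusted p under 0.05. It has 1 residual degree of freedom, from the 2 testis ages. The 5 probe sets of smallest p were Arhgef11, Dsn1, Fzd8, Rfng and Tnni3, and in each the 129/Sv embryo array was the highest of the 6: Dsn1 1417139_at, of a kinetochore protein, read 2283 there and from 581 to 868.6 on the other 5 arrays. For Sf1 1459765_s_at the testis minus embryo value was 0.47, for Pum3 1434173_s_at -0.21 and for Cox15 1437982_x_at -0.11, each with a limma adjusted p of 0.9 or more. For Sf1 1459766_x_at it was 1.04, and that probe set read 8012 in the 129/Sv embryo against 2761 to 4008 on the other arrays.

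The pathways of the leading genes showed small differences beside the leading probe sets. Of the 54 tested probe sets of the branch point and early spliceosome list, 1 was called lower, that of Sf1, and 0 higher. The median was 0.08, beside 0.02 over all tested probe sets. In 3 of 3 tissues 14 were higher (25.9%) and 7 lower (13%), close to the 24.8% and 14.3% over all probe sets. With the values as deposited the counts were 10 and 10 (18.5% each), beside 16.2% and 21.8% over all probe sets. Sf3b2, a subunit gene of the U2 particle and also on chromosome 19, differed by 0.67, 0.48 and 0.35 in 1456352_a_at. Its other tested probe sets ranged from -0.45 to 0.44 in the mean. Khdrbs1, an RNA-binding protein gene, differed by 0.18, 0.59 and 0.63 in 1418629_a_at. In the list of Pumilio and ribosome biogenesis genes, Pum3 was the 1 called of 34 probe sets and the median was 0.18. In 3 of 3 tissues 12 were higher (35.3%) and 3 lower (8.82%), and as deposited 10 (29.4%) and 5 (14.7%). Ncl, the nucleolin gene, differed by 0.58, 0.41 and 0.50.

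In the heme A and cytochrome c oxidase list, Cox15 was the 1 called of 29 probe sets and the median was 0.08. In 3 of 3 tissues 13 were higher (44.8%) and 2 lower (6.9%), beside 24.8% and 14.3% over all probe sets. With the values as deposited the median was 0.01, with 6 higher (20.7%) and 4 lower (13.8%). The shares over all probe sets were then 16.2% and 21.8%, and their median was -0.04. After quantile normalization 27.6% were higher and 6.9% lower, beside 21% and 17.1%. Under each scaling more were higher and fewer lower than over all probe sets, by an amount that varied. No set test was made. Cox17, a copper chaperone gene of the oxidase, differed by 0.33, 0.15 and 0.45. In the oligosaccharyltransferase list, which includes Tmem258, 0 of 23 probe sets were called. At an unadjusted p under 0.05 in limma 8 were higher and 0 lower, beside 9.53% and 3.69% over all probe sets. In 3 of 3 tissues 12 were higher (52.2%) and 0 lower, and as deposited 9 (39.1%) and 0. Both probe sets of Rpn1, the ribophorin I gene, named by the rule were higher in each tissue, by 0.36, 0.38 and 0.49 for 1438943_x_at and by 0.30, 0.44 and 0.45 for 1456438_x_at. The median of this list was 0.19, and 0.13 with the values as deposited. In the lysine acetyltransferase list 0 of 26 were called, beside 0.0121% lower and 0% higher over all probe sets, and the median was 0.17. In 3 of 3 tissues 13 were higher (50%) and 3 lower (11.5%), and as deposited 9 (34.6%) and 3 (11.5%). Kat2a, the paralogue of Kat2b, differed by 0.24, 0.70 and 0.41, and Crebbp by 0.42, 0.48 and 0.30.

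Of the 38 probe sets of cell cycle genes 0 were called. In 3 of 3 tissues 25 were higher (65.8%) and 4 lower (10.5%), beside 24.8% and 14.3% over all probe sets. As deposited 20 were higher (52.6%) and 4 lower (10.5%), beside 16.2% and 21.8%. The median was 0.21, with 0.14 for the values as deposited and 0.17 after quantile normalization. Rrm2, of ribonucleotide reductase, differed by 0.33, 0.72 and 0.33 and the spindle checkpoint gene Bub1 by 0.28, 0.36 and 0.65, while Top2a 1442454_at, of topoisomerase II, differed by -0.17, -0.70 and -0.70. In the p53 and apoptosis list 0 of 23 were called, beside 0.0121% lower and 0% higher over all probe sets, and the median was 0.08. In 3 of 3 tissues 10 were higher (43.5%) and 2 lower (8.7%), and as deposited 6 (26.1%) and 3 (13%). Among known mouse testicular germ cell tumour genes, 6 of the 10 listed were tested, with 0 of 14 probe sets called. Kitl, the ligand of Kit, differed by 0.37, 0.31 and 0.38 in 1448117_at and the translation factor gene Eif2s2 by 0.26, 0.21 and 0.32. The median of that list was 0.04, and -0.03 with the values as deposited, beside 0.02 and -0.04 over all tested probe sets. In 3 of 3 tissues 4 were higher (28.6%) and 0 lower, and as deposited 3 (21.4%) and 2 (14.3%).

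No marker probe set of germ, Sertoli, Leydig, peritubular, endothelial, blood, muscle, neural, liver, cartilage or kidney cells, or of pluripotent cells, was called. Over all tested probe sets 0.0121% were called lower and 0% higher. The lack of calls in short lists thus does not show that cell makeup is the same. The summed intensity of 15 germ cell marker probe sets was 14020 in 129/Sv and 11590 in 129.MOLF-Chr19 in the E13.5 testis and 9191 and 7725 in the PN1 testis, with a median difference of -0.00. Dazl 1449502_at, of a germ cell RNA-binding protein, carried much of that: it differed by -0.43, -1.97 and -0.01. Without it the sums were 8907 and 8085 in the E13.5 testis and 6473 and 7030 in the PN1 testis. These sums are of deposited values that were not centred. The array medians were 239.1 in 129/Sv and 220.5 in 129.MOLF-Chr19 for the E13.5 testis, and 228 and 228.4 for the PN1 testis. After centring, the median difference of the germ cell list was 0.02 in the E13.5 testis and 0.09 in the PN1 testis. Of the 12 erythroid probe sets 9 were higher (75%) and 0 lower in 3 of 3 tissues with a median of 0.17, beside 24.8% and 14.3% over all probe sets. With the values as deposited 6 (50%) and 0 were, beside 16.2% and 21.8%. After quantile normalization only 3 (25%) and 0 were, beside 21% and 17.1%. The embryonic globin gene Hbb-bh1 differed by 0.42, 0.23 and 0.33 in 1450736_a_at. The medians of the Leydig, peritubular and endothelial lists were -0.08, -0.05 and -0.06. Lower in 3 of 3 tissues were 4 of 9 Leydig (44.4%), 6 of 26 peritubular (23.1%) and 4 of 15 endothelial probe sets (26.7%), beside 14.3%. Higher were 0 Leydig, 3 peritubular (11.5%) and 0 endothelial ones, beside 24.8%. As deposited 55.6%, 30.8% and 46.7% were lower, beside 21.8%. After quantile normalization 33.3%, 23.1% and 33.3% were, beside 17.1%. The Leydig probe sets named by the rule are all of Star. In pooled whole tissue, fewer cells of a type and less RNA per cell cannot be told apart, and the part of tissue makeup in the strain differences was not tested.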

How the data were processed

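RNA pools from 6 groups were hybridised to 1 Affymetrix mouse array each. The deposited table holds intensity values per probe set on a linear scale; how the authors summarised and scaled them is not given in the sources used here. The labels' protocols describe pooled total RNA and biotin labelling. Of 45101 probe sets, 64 controls were left out. Intensities below an array's 25th percentile were raised to it, and all were put on a log2 scale and centred on the array's median. Tested were the 24713 probe sets above the array median on at least 2 arrays. Limma 3.58.1 (R 4.3.3) fitted strain with tissue as block (2 residual degrees of freedom, intensity trend), two-sided, with Benjamini-Hochberg adjustment over all probe sets. It was tested on simulated data.

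Gene names came from the platform annotation: 21373 tested probe sets have 1 symbol, 574 several and 2766 none. Chromosomes and gene order came from RefSeq's GRCm38.p6 table, and promoters from its promoter table. Named are the called probe sets, the 12 of smallest p in each direction with 1 symbol, those past 2-fold in 3 of 3 tissues, every tested probe set of the chromosome 19 genes so named, up to 3 of smallest p per list and the 5 of smallest p between testis and embryo. The question, lists and thresholds were chosen with earlier results of these data known. The arrays carry no replicate numbers, and their small number limits the precision. Alternatives covered scaling, floor, filter, probe set choice, block, limma options and each tissue left out.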

Additional observations from a re-analysis of the deposited data

Results flagged for a closer look

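6 probe sets named by the rule, of the leading genes or of the lists, differed in one direction in both testis pairs and in the other in the embryo pair. None passed the test of testis against embryo in limma (adjusted p from 0.9 to 0.93), and small differences take opposite signs often. The mean testis difference minus the embryo difference was 1.05 for Kat2b 1450821_at (0.08 and 0.46 in testis, -0.78 in embryo) and 0.87 for Rnaseh2c 1417427_at (0.99 and 0.51, against -0.12). It was 0.48 for Kitl 1415855_at (0.33 and 0.53, against -0.05) and -0.50 for Ckm 1417614_at (-0.57 and -0.25, against 0.09). For Ina 1418178_at it was -0.17 (-0.21 and -0.08, against 0.03), and for Tnks2 1428388_at -0.20 (-0.09 and -0.16, against 0.07). Each strain and tissue has 1 array, so no flag for a sample far from the rest of its group could be set.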

How the results depend on the processing

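None of the 12 named probe sets in each direction changed sign under the settings in which it was tested (15 of these 24 with the filter at the 75th percentile). They were picked for their small p on these same arrays, and each had one sign in all 3 tissues. The kept sign thus follows from how they were picked and is no support. Without the tissue block the limma adjusted p was 0.0678 for Sf1, 0.875 for Pum3 and 0.385 for Cox15, and with no filter 0.159 for Cox15. The counts did move, and the cause was not tested. Probe sets called higher numbered 0 in the fit reported, 1 with the values as deposited, 1 after quantile normalization and 2 with limma's robust option, and from 0 to 41 with a tissue left out. Those called lower numbered 3, and 5 as deposited, 5 with the robust option, 0 with the mean of a gene's probe sets, 0 without the tissue block, and from 0 to 20 with a tissue left out. Called probe sets on chromosome 19 numbered 3, and 6, 6, 0 and 0 under the same 4 alternatives, and from 0 to 17 with a tissue left out. The chromosome 19 share at an unadjusted p under 0.05 was 7.2% without the block, and the other chromosomes' 1.79%. With a tissue left out, these shares ranged from 9.27% to 24.9% and from 3.96% to 19.2%. Probe sets past the fold threshold in every tissue numbered 6 higher and 7 lower at 1.5-fold and 0 higher and 2 lower at 3-fold, 0 and 0 after averaging the probe sets of a gene, and from 1 to 2 higher and from 4 to 7 lower with a tissue left out. The test of testis against embryo called 1073 probe sets with no filter on dim values, of which 499 are among those tested with it. The fit reported is paired by tissue, and the values without the tissue block are those given above.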
